A study of Bos taurus with 39 samples.

Results

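Predicted miR-484, miR-485, miR-486 and miR-504 are 4 of the 965 miRNAs that the study's annotation predicted in bovine oocytes, next to 1030 known ones, which made 1995 rows in all. In the tables, the counts of miR-484, miR-486 and miR-504 were identical in each of the 39 libraries, predicted miR-485 differed from miR-484 by a single base, and both sequences were placed on chromosome 23. The 4 rows therefore hold 2 measurements, and predicted miR-484 stands below for all 3 identical rows. The sequences were selected on measured values, because both were lower in denuded oocytes than in carbenoxolone-treated complexes at 6 h, and the ratio of one to the other belongs to the selection too. Identical rows were common in these tables: 364 of the 957 predicted miRNAs with any count shared all their counts with another, in 141 sets, of which 24 held exactly 3.

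The oocytes were bovine, from slaughterhouse ovaries, and were matured in vitro. Within a cumulus-oocyte complex (COC), gap junctions join the oocyte to the surrounding cumulus cells. In the control group whole COCs were matured, in the CBX group the medium of the COCs contained the gap junction blocker carbenoxolone, in the coculture group denuded oocytes lay in the same medium as COCs but apart from them, and denuded oocytes alone made up the DO group. Each group was sampled at 1, 6 and 22 h with 3 libraries, and 3 control libraries were labelled 0 h, which gave 13 conditions. RNA was isolated from the oocytes alone: COCs were stripped of cumulus cells after culture by vortexing in hyaluronidase, while denuded oocytes had their zona removed with pronase. Each library is a pool of oocytes, and p-values measure only the spread between these libraries, which may be in part technical. In such bulk samples, more molecules per oocyte and a larger share of contributing cells cannot be told apart.

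The 2 mature sequences are printed first, because their single difference is what separates the measurements. Capitals mark the seed (bases 2 to 8), the stretch through which a miRNA pairs with its targets.
predicted miR-484: gGGGGUGUagcucagugg
predicted miR-485: gGGGAUGUagcucagugg
Both were 18 bases long on the plus strand, and 17 bases were identical. Counted from 1 at the 5′ end and with the base of miR-484 first, the difference was G5A, so it lay inside the seed, and the 13 bases from position 6 onward were shared. Among 9 other predicted miRNAs of this length with a listed sequence, the next nearest to miR-484 after miR-485 differed at 8 positions. The list held 18 sequences, and none for miR-486 or miR-504.

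As background, transfer RNAs carry amino acids to the ribosome and fold so that their 5′ and 3′ ends pair in the acceptor stem. Cells cut them into stable fragments, among which 5′ fragments of alanine tRNA are well known, and small RNA libraries capture such fragments together with miRNAs. A G-U wobble pair in the acceptor stem is a main feature by which alanyl-tRNA synthetase recognises its tRNA. The letters of both sequences read as the 5′ end of alanine tRNA. Those of predicted miR-457 (chromosome 22) read as the 3′ end of such a tRNA with its CCA tail, and those of predicted miR-824 (chromosome 7) as the 5′ end of a leucine tRNA. These are shown as the nearest points of comparison, and both were among the miRNAs called in the selecting comparison.
predicted miR-457: uCCCCGGCaccuccacca
predicted miR-824: gUCAGGAUggccgaguggucuaagg
The first 7 bases of miR-484 were set against the 7 bases of predicted miR-457 that precede its final ACCA, which presumes an acceptor stem. They gave 6 Watson-Crick pairs and 1 wobble pair with 0 unpaired. The same bases of miR-485 gave 5 Watson-Crick pairs and 1 wobble pair, and position 5, the differing base, was unpaired. In the RefSeq gene list of the assembly ARS-UCD 2.0, which is newer than the assembly ARS-UCD1.2 of the study, 26 of 53 alanine tRNA genes were on chromosome 23. These were 15 TRNAA-AGC, 5 TRNAA-CGC and 6 TRNAA-UGC genes, and chromosome 6 came next with 5. Chromosome 23 carried 212 of all 2325 tRNA genes. These are descriptions of letters and of gene lists. Whether the reads came from tRNA was not tested.

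The numbers do not link the predicted miRNAs to known ones. Known bta-miR-484 had 26 counts in all libraries together, at most 4 in one, and known bta-miR-485 had 4. Known bta-miR-486, an miRNA of red blood cells, had 57, and known bta-miR-504 had 0, which allows up to 3 counts. Predicted miR-484 had 1272 counts, between 3 and 87 per library, and predicted miR-485 had 7745, between 30 and 989. Both predicted sequences were counted in each of the 39 libraries.

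Library totals ranged from 11985 to 175429 counts with a median of 70069, so that 3 counts, the limit that a count of 0 allows, stood for 17.1 to 250.3 CPM, the count per 1000000 counts of its library. Predicted miR-485 made up between 0.0650% and 3.34% of a library (median 0.183%) and ranked between 6 and 177 among all rows. Predicted miR-484 made up between 0.0149% and 0.726% (median 0.0433%). In all, 4 control libraries stood apart in these sequences and are named where they bear on a result. They are the 0 h replicate 1, which was also the smallest library with 11985 counts, replicates 2 and 3 at 1 h, and replicate 2 at 6 h. Fits below that leave out a single one of these libraries were chosen after seeing the data. Over the 36 libraries at 1, 6 and 22 h, the oocyte marker bta-miR-202 was present in each, with a median of 522 CPM, and 3 of 4 cumulus and granulosa markers were detected, with a median sum of 4421 CPM and bta-miR-212 at 0. The summed stroma list ran from 1147 to 2911 CPM, the red blood cell list from 0 to 119.9 CPM and the immune list from 99.1 to 3240.3 CPM. The highest immune sum was that of DO replicate 2 at 6 h, a library of the selecting comparison. Next came 699.8 CPM in control replicate 1 at 1 h, and the part of this list in the levels was not tested.

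Levels were compared as CPM scaled by the trimmed mean of M values (TMM) over all libraries, and values are given in the order of replicates 1, 2 and 3. In the control group, predicted miR-485 was at 35441, 1516 and 1882 CPM at 0 h. It was at 1187, 9082 and 15890.1 CPM at 1 h. At 6 h the values were 1617, 13253 and 1625 CPM. Control libraries of the same time thus lay far apart in this sequence, with SDs close to or above their means. At 22 h it was at 978, 4868 and 788 CPM, the last of these being the lowest control value. In 3 of the 9 control libraries at 1, 6 and 22 h, namely replicates 2 and 3 at 1 h and replicate 2 at 6 h, predicted miR-485 was above all 27 libraries of the other groups.

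In the CBX group predicted miR-485 was at 2967, 2675 and 2886 CPM at 1 h, the tightest of the 13 conditions with a coefficient of variation of 5.31%. It was at 1021, 5399 and 3879 CPM at 6 h and at 1776, 5928 and 1929 CPM at 22 h. At both later times replicate 2 was the highest, and the highest value outside control was that of CBX at 22 h. In the coculture group it was at 1248, 1760.4 and 2288 CPM at 1 h, 979.9, 3611 and 1242 CPM at 6 h and 893, 1843 and 1544 CPM at 22 h. In the DO group it was at 1317, 1816 and 2637 CPM at 1 h, 665, 1597 and 1399 CPM at 6 h and 2135, 1887 and 2285 CPM at 22 h. The DO replicate 1 at 6 h was the lowest of all 39 libraries for this sequence. The DO values at 22 h all lay above the DO values at 6 h.

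Predicted miR-484 was at 7708, 409.7 and 541 CPM in control at 0 h, 281, 641 and 386 CPM at 1 h, 162, 818 and 359 CPM at 6 h and 173, 644 and 351 CPM at 22 h. The single high value at 0 h came from 87 counts, and the lowest of the series, control replicate 1 at 6 h, from 3. In CBX it was at 505, 488 and 437 CPM at 1 h, 254, 945 and 920.1 CPM at 6 h and 303, 1414 and 371 CPM at 22 h. No control library at 1, 6 or 22 h lay above the highest of the other 27 libraries, unlike for predicted miR-485. In coculture it was at 283, 430.3 and 493 CPM at 1 h, 227, 646 and 336 CPM at 6 h and 192, 586 and 368 CPM at 22 h. In DO it was at 307, 476 and 573 CPM at 1 h, 169, 333 and 173 CPM at 6 h and 407, 586 and 467 CPM at 22 h. As for predicted miR-485, no DO library at 22 h was as low as a DO library at 6 h.

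**Figure D1:**
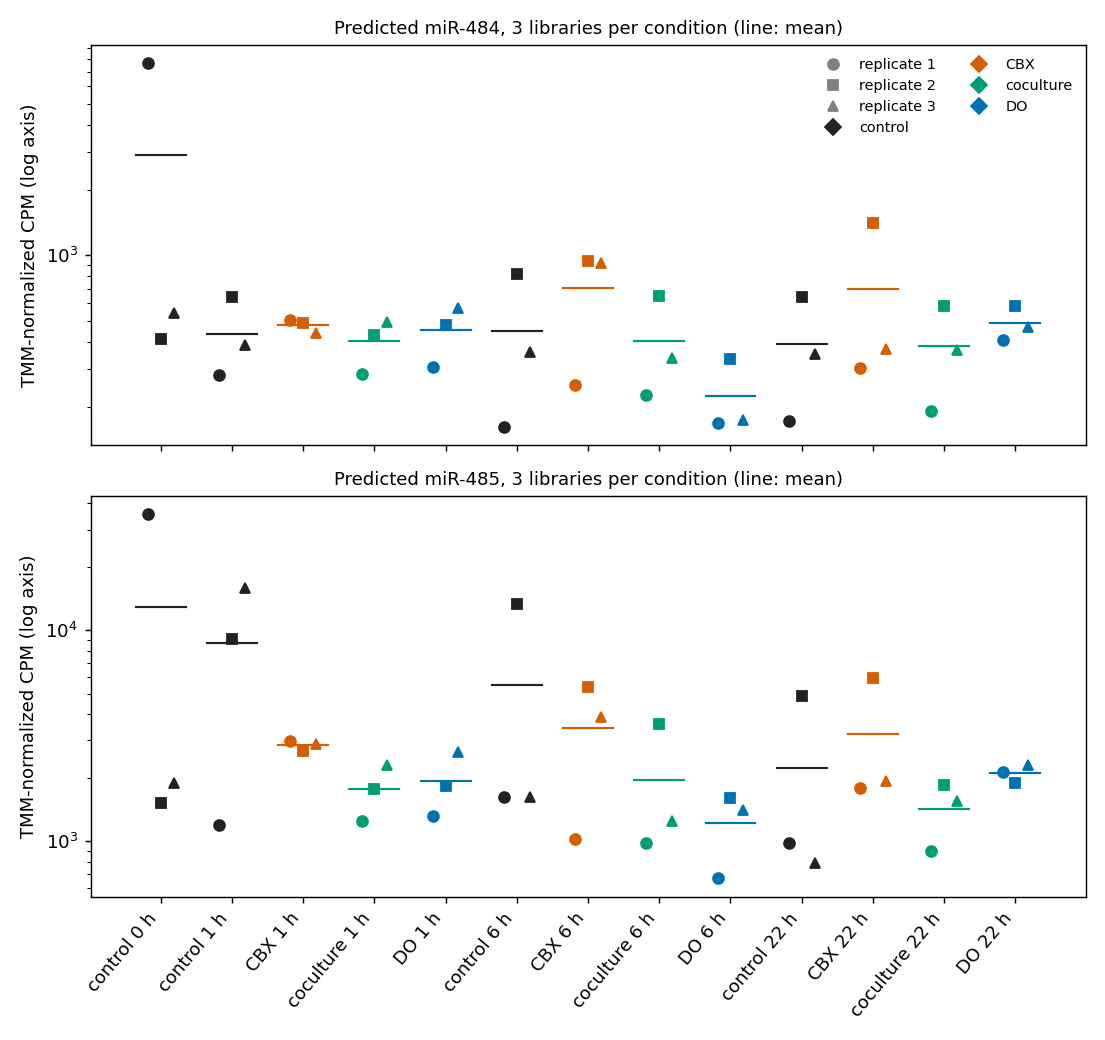
TMM-normalized CPM (log axis) of predicted miR-484 (top) and predicted miR-485 (bottom) in the 3 libraries of each of 13 conditions, with colours for groups, symbols for replicate numbers and a line at each mean. Replicate 1 of control at 0 h reached 7708 and 35441 CPM, and DO at 6 h had the lowest mean of both sequences, 225 and 1220.4 CPM.

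Ordered by their means, both sequences were highest in control at 0 h, at 2886 ± 4177 CPM for predicted miR-484 and 12946 ± 19482 CPM for predicted miR-485 (SD, n = 3). They were lowest in DO at 6 h, at 225 ± 93.7 CPM and 1220.4 ± 491 CPM (SD, n = 3). For predicted miR-485, control at 1 h and at 6 h came next below control at 0 h, with 8719.7 ± 7358 CPM and 5498 ± 6716 CPM (SD, n = 3), whereas for predicted miR-484 CBX at 6 h and at 22 h did, with 706 ± 392 CPM and 696 ± 623 CPM (SD, n = 3). Of the 12 steps between neighbours in either order, 0 exceeded the SD of the 2 conditions. Of the 78 pairs of conditions, the libraries failed to overlap in 3 for predicted miR-484 and in 9 for predicted miR-485. How often libraries failed to overlap was not counted over all miRNAs in any comparison, so such cases have no background to be set against. The order is therefore a ranking of means whose neighbours do not differ beyond their spread. Its ends moved with single replicates: by means of log2 CPM over the 12 conditions at 1, 6 and 22 h, the lowest condition of predicted miR-485 was control at 22 h without replicate 2, and the highest was control at 6 h without replicate 3, in place of control at 1 h. For predicted miR-484 the highest was CBX at 22 h without replicate 3, in place of CBX at 6 h.

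Levels also differed by replicate number. Over the 12 conditions at 1, 6 and 22 h, predicted miR-484 was higher in replicate 2 than in replicate 1 in 11, and predicted miR-485 in 10. Replicate 3 was above replicate 1 in 11 and 10 conditions. The median of predicted miR-485 was 1218 CPM in replicates numbered 1, 3143 in those numbered 2 and 2107 in those numbered 3, and that of predicted miR-484 was 267, 614 and 378 CPM. The models below hold the replicate number as a term. The study's model held the ovary pool as a batch, and the sources used here do not state that the number marks the pool.

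Raw counts of both sequences followed the library total only loosely. Over the 36 libraries Spearman's rho between count and total was 0.28 for predicted miR-484 (permutation test, p = 0.092, adjusted over 2 relations 0.18) and 0.18 for predicted miR-485 (permutation test, p = 0.29, adjusted 0.29). Pearson's r was 0.26 (permutation test, p = 0.13, adjusted 0.25) and -0.087 (permutation test, p = 0.61, adjusted 0.61), and without the 2 libraries farthest from the median total it was 0.29 and -0.049. The permutations treated the 36 libraries as interchangeable and took no account of condition or replicate number. Among 498 distinct miRNA profiles the median rho was 0.75, and 14.5% and 11.4% of them had a lower one than miR-484 and miR-485. Within the 12 libraries of each replicate number, rho was 0.64, 0.70 and 0.34 for predicted miR-484, and 0.48, 0.37 and 0.095 for predicted miR-485. The relation was thus higher within replicate numbers 1 and 2 than over all libraries.

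**Figure D2:**
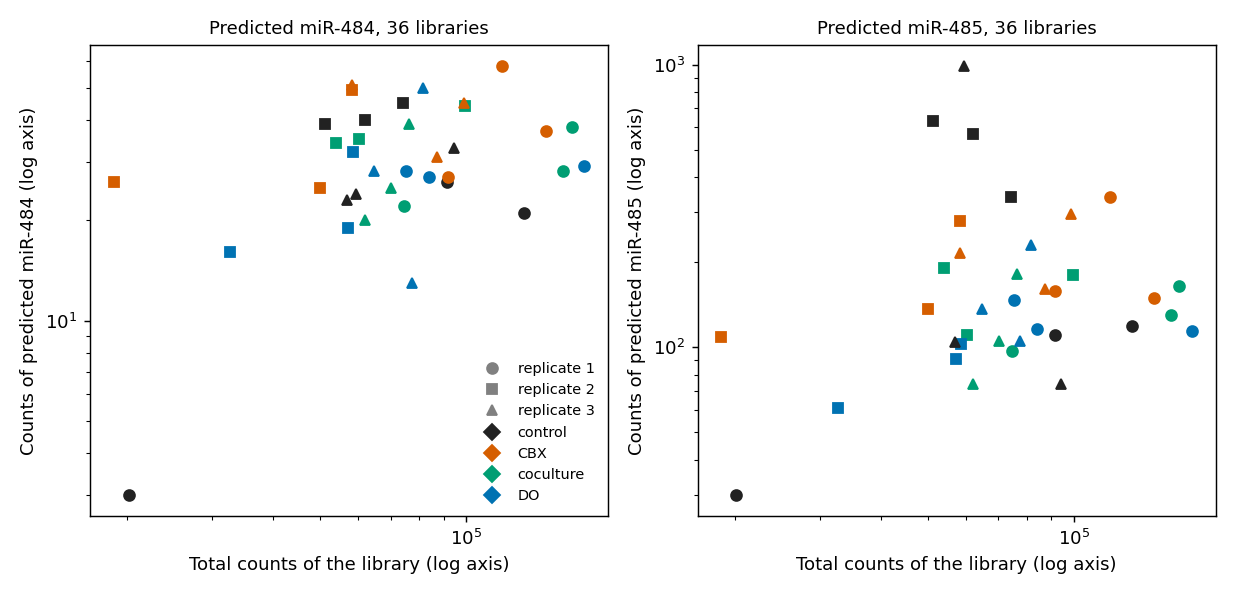
Counts of predicted miR-484 (left) and predicted miR-485 (right) against the total counts of each of 36 libraries, both on log axes, with colours for groups and symbols for replicate numbers. Libraries of replicate number 1 reach the largest totals, 175429 at most, without the highest counts of predicted miR-485, which were 567, 989 and 632 in 3 control libraries.

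The ratio of predicted miR-484 to predicted miR-485 kept to a narrow range outside control. It is given as a description, since it belongs to the choice of these sequences. Over the 27 libraries of CBX, coculture and DO it had a median of 0.217 and ran from 0.124 to 0.318. The medians were 0.182 in CBX (0.152 to 0.248), 0.232 in coculture (0.179 to 0.318) and 0.217 in DO (0.124 to 0.311). Pooled over these 27 libraries, predicted miR-484 made up 17.3% of the counts of both sequences. The exact binomial 95% interval of a single library held that share in 25 of the 27, and those intervals cover counting error only. The exceptions were CBX replicate 3 at 1 h, with a share of 13.2% (9.76% to 17.2%), and coculture replicate 2 at 22 h, with 24.1% (17.4% to 31.9%).

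In control the ratio spread far more widely. The standard deviation of the log2 ratio was 1.25 over the 9 control libraries at 1, 6 and 22 h and 0.305 over the 27 others. At 1 h the control ratios were 0.236, 0.0705 and 0.0243. At 6 h they were 0.1, 0.0617 and 0.221. At 22 h they were 0.176, 0.132 and 0.446. Thus 4 of the 9 lay below the lowest of the other 27 and 1 lay above the highest, and 4 of the 9 intervals held the share of 17.3%. The lowest ratio, in replicate 3 at 1 h, came from 24 counts of predicted miR-484 and 989 of predicted miR-485, a share of 2.37% (1.52% to 3.50%, exact binomial). The highest, in replicate 3 at 22 h, came from 33 and 74 counts, a share of 30.8% (22.3% to 40.5%, exact binomial).

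In 3 of these 4 control libraries the low ratio went with a high level of predicted miR-485 and not with a low level of predicted miR-484. Replicate 2 at 1 h had 40 and 567 counts (share 6.59%, 4.75% to 8.87%), and replicate 2 at 6 h had 39 and 632 (5.81%, 4.17% to 7.86%). In these 2 libraries and in replicate 3 at 1 h, predicted miR-484 was at 641, 818 and 386 CPM, inside the range of 169 to 1414 CPM of the 27 libraries outside control. The remaining one, replicate 1 at 6 h, had only 3 and 30 counts, and its interval of 1.92% to 24.3% held the share of 17.3%. At 0 h, in contrast, both sequences were high together in replicate 1, with 87 and 400 counts. The 0 h ratios were 0.2175, 0.270 and 0.287, and each of the 3 intervals held the share of 17.3%.

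**Figure D3:**
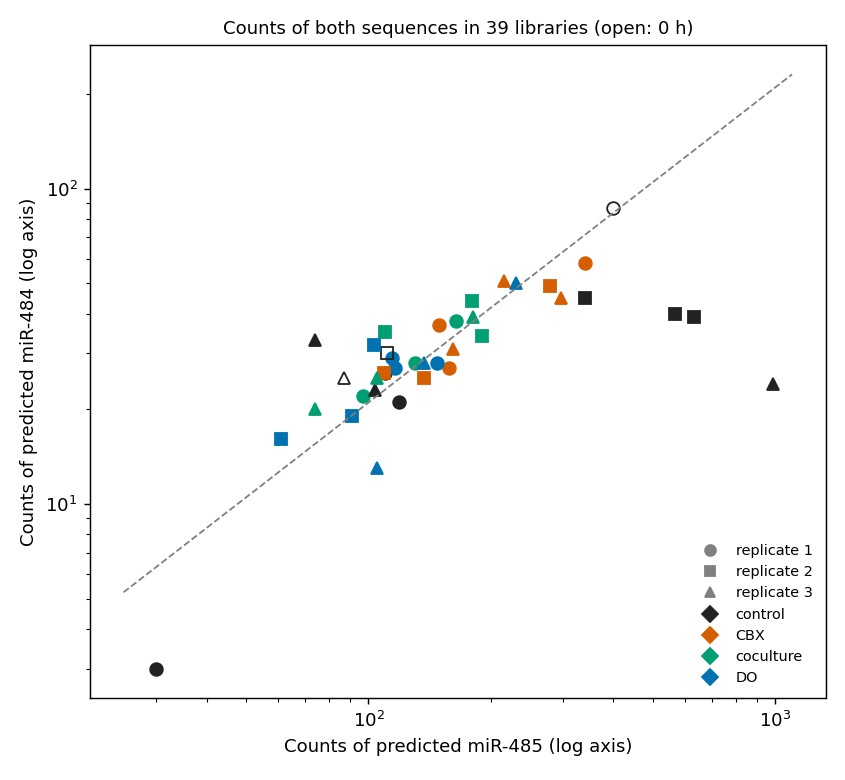
Counts of predicted miR-484 against counts of predicted miR-485 in 39 libraries on log axes, with the dashed line at a share of 17.3% for predicted miR-484, colours for groups, symbols for replicate numbers and open symbols for 0 h. Most libraries follow the line, and control libraries with 567, 632 and 989 counts of predicted miR-485 lie well to its right.

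**Figure D4:**
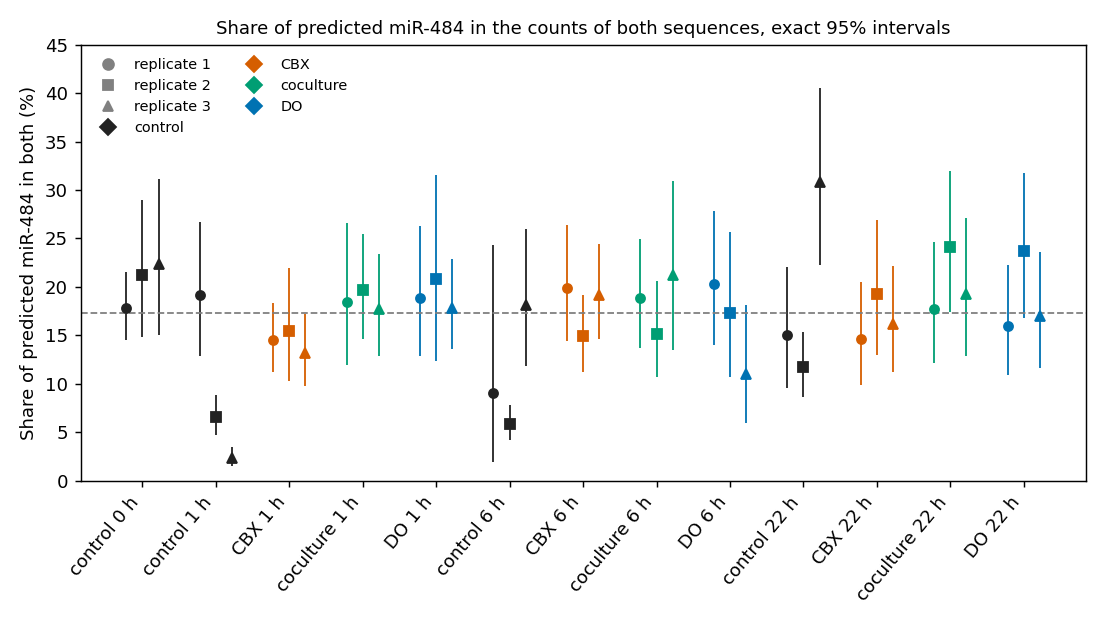
Share of predicted miR-484 in the counts of both sequences, in percent, for each library of 13 conditions, with exact binomial 95% intervals and a dashed line at 17.3%, the pooled share of the 27 libraries outside control. The intervals of 25 of these 27 cross the line, while control libraries range from 2.37% to 30.8%.

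Levels of other cell types' markers in the 3 control libraries with high predicted miR-485 were not uniform. The muscle list (bta-miR-1, bta-miR-133a and bta-miR-206) summed to 4844 CPM in replicate 2 at 1 h and to 11979.9 CPM in replicate 2 at 6 h, the largest of the 36 libraries, against a median of 148 CPM. In replicate 3 at 1 h, which had the highest level of predicted miR-485 of the 36, all 3 muscle miRNAs were at 0. The next largest muscle sums were 3348 CPM in coculture replicate 2 at 6 h and 2354 CPM in control replicate 2 at 22 h. After these came CBX replicate 3 at 22 h with 1431 CPM. Predicted miR-485 was the highest of its condition in the coculture and control libraries and not in the CBX library. In the 3 control libraries the cumulus and granulosa sums were 3391, 3409 and 4244 CPM, below the median of 4421 CPM. Their stroma sums were 2874 and 2122 CPM in replicates 2 and 3 at 1 h and 1286 CPM in replicate 2 at 6 h. The median stroma sum of the 36 libraries was 1855 CPM. The level of bta-miR-202 in control replicate 3 at 1 h was the largest of the 36, at 1599.8 CPM. The part of these markers in the level of predicted miR-485 was not tested.

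The comparison that selected the sequences is given as a description. In the fit of CBX against DO at 6 h, predicted miR-485 was at 3302 ± 2073 CPM in CBX and 1243 ± 519.8 CPM in DO (SD, n = 3), a log2 fold change of -1.23 (SE 0.25). Predicted miR-484 was at 681 ± 368 and 228 ± 94.0 CPM (SD, n = 3), a log2 fold change of -1.40 (SE 0.33). Both were lower in DO in 3 of 3 pairs of libraries with the same number, and the CBX and DO libraries overlapped, since CBX replicate 1 lay below DO replicates 2 and 3 for predicted miR-485 and below DO replicate 2 for predicted miR-484. A miRNA counted as called when its Benjamini-Hochberg adjusted p was under 0.05 and its log2 fold change was 1 or more in either direction, and 10 of 426 miRNAs were called in that comparison, or 2.35%. The raw counts were 149, 280 and 215 counts in CBX against 114, 91 and 105 counts in DO for predicted miR-485, and 37, 49 and 51 counts against 29, 19 and 13 counts for predicted miR-484.

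Of the 18 group comparisons, 13 held no library of CBX or DO at 6 h, and their tests use no library of the selecting comparison. In these 13 edgeR called neither sequence. At an unadjusted p under 0.05 predicted miR-484 passed in 0 and predicted miR-485 in 8, and DESeq2 called neither, with 0 and 6 at an unadjusted p under 0.05. Among all miRNAs tested, 1.46% were called for CBX against DO at 1 h, 0.216% for control against coculture at 22 h and 0.232% for CBX against DO at 22 h, and 0% in each of the other 10. An unadjusted p under 0.05 was reached by 10 to 50 of the miRNAs tested in a comparison.

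At 1 h the means of predicted miR-485 in CBX, coculture and DO lay below that of control, but none of the differences passed the test. Against control, predicted miR-485 had a log2 fold change of -1.80 (SE 0.53) in coculture (unadjusted p = 0.012 and adjusted p = 0.95, edgeR). It was -1.61 (SE 0.58) in DO (unadjusted p = 0.036 and adjusted p = 0.97, edgeR) and -1.12 (SE 0.48) in CBX (unadjusted p = 0.029 and adjusted p = 0.997, edgeR). The sign held in 2 of 3 pairs in each, as control replicate 1 was low. For predicted miR-484 the same contrasts were -0.10 (SE 0.28), 0.14 (SE 0.30) and 0.18 (SE 0.30). Without replicate 1 predicted miR-485 was called in 2 of the 3, at -2.10 in CBX (adjusted p = 0.0081, edgeR) and -2.40 in DO (adjusted p = 0.00059, edgeR). By p it ranked 1 of 421 and 1 of 437 miRNAs, and how many others were called in these fits is not given here. Without control replicate 3 alone, the log2 fold change of CBX over control shrank to -0.27 (adjusted p = 0.98, edgeR), and without control replicate 2 it was -0.69. Under the same removals it was -1.20 and -1.42 for coculture over control and -1.07 and -1.27 for DO over control. None of these was called.

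A joint fit of the 24 libraries at 1 and 22 h, which held no library of the selecting comparison, tested the 4 groups together. At 1 h the group term of predicted miR-485 had the smallest p of 563 miRNAs tested (F = 5.86, unadjusted p = 0.0049, adjusted p = 0.997, edgeR), and the 3 high-level control libraries include 2 of this time. Without replicate 3 the term had F = 2.24 and stood at rank 78 of 563 (unadjusted p = 0.13, adjusted p = 0.94, edgeR), and without replicate 2 at rank 6 of 581 (F = 4.53, unadjusted p = 0.019, adjusted p = 0.99, edgeR). For predicted miR-484 it was unadjusted p = 0.82. At 22 h the group term had unadjusted p = 0.39 for predicted miR-485 and 0.23 for predicted miR-484 (edgeR). The change of the group effect from 1 to 22 h had unadjusted p = 0.078 and 0.84, with adjusted p = 0.96 and 0.99 (edgeR). At an adjusted p under 0.05 the joint fit called 0%, 1.42% and 0% of the miRNAs for these 3 terms, with 22, 31 and 20 at an unadjusted p under 0.05.

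Between CBX and coculture, the values of predicted miR-485 took the same order at each time. Predicted miR-485 was lower in coculture than in CBX in 9 of 9 pairs of libraries with the same number, 6 of them without CBX at 6 h. At 1 h it was at 2973 ± 189.8 CPM in CBX and 1845 ± 502 CPM in coculture (SD, n = 3), with no overlap and a log2 fold change of -0.72 (SE 0.23) (unadjusted p = 0.013 and adjusted p = 0.93, edgeR). At 22 h it was -0.997 (SE 0.31) (unadjusted p = 0.018 and adjusted p = 0.67, edgeR), while the libraries overlapped. At 6 h, where the CBX libraries had been used to select the sequences, it was -0.69 (SE 0.30). These were not called. With deduplicated reads as library sizes, the log2 fold change at 22 h was -0.378. Predicted miR-484 was lower in coculture in 8 of 9 pairs on the scale of all libraries and in 7 of 9 on the scale of each comparison, with log2 fold changes of -0.27 (SE 0.31) at 1 h, -0.65 (SE 0.29) at 6 h and -0.65 (SE 0.34) at 22 h.

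At 22 h predicted miR-485 was higher in CBX than in control in 3 of 3 pairs, by 0.82 (SE 0.25) on the log2 scale (unadjusted p = 0.015 and adjusted p = 0.38, edgeR), and predicted miR-484 by 0.69 (SE 0.33) (unadjusted p = 0.081 and adjusted p = 0.52, edgeR), also in 3 of 3. Neither was called with all 3 replicates. With deduplicated reads as library sizes, the difference for predicted miR-485 was 0.165. The cumulus and granulosa list summed to 8929.7, 9820.1 and 7735 CPM in control at 22 h, the 3 largest of the 36 libraries, against 4732, 3511 and 4728 CPM in CBX, and its part in the result was not tested. Without replicate 2 predicted miR-485 was called there, at 1.06 (adjusted p = 0.00038, edgeR), and likewise for DO over control at 22 h, at 1.32 (adjusted p = 0.00037, edgeR). By p it ranked 14 of 496 miRNAs for CBX and 7 of 472 for DO, so other miRNAs ranked ahead of it. How many of all miRNAs were called in these fits is not given here. With all replicates DO over control at 22 h was 0.42 (SE 0.56) (unadjusted p = 0.48 and adjusted p = 0.92, edgeR), with 2 of 3 pairs higher in DO. The same direction over control did not hold for predicted miR-485 at 1 h, where CBX was the lower. For coculture over control at 6 h, predicted miR-485 had a log2 fold change of -1.08 (SE 0.38) (unadjusted p = 0.029 and adjusted p = 0.85, edgeR) and was lower in 3 of 3 pairs, and without control replicate 2 it was -0.59.

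The remaining group comparisons at 6 h shared CBX or DO libraries with the selecting comparison and are given as values alone. DO against control was -1.58 (SE 0.57) for predicted miR-485 and -0.92 (SE 0.41) for predicted miR-484. DO against coculture was -0.55 (SE 0.23) and -0.76 (SE 0.29). CBX against control was -0.37 (SE 0.52) and 0.64 (SE 0.47), with the 2 sequences on opposite sides of 0. In the first of these comparisons the control libraries of predicted miR-485 all lay above those of DO, the closest being 1617 CPM in control and 1597 CPM in DO on the scale of all libraries. Among all miRNAs, 0.473% were called for coculture against DO and 0% for both others.

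**Figure D5:**
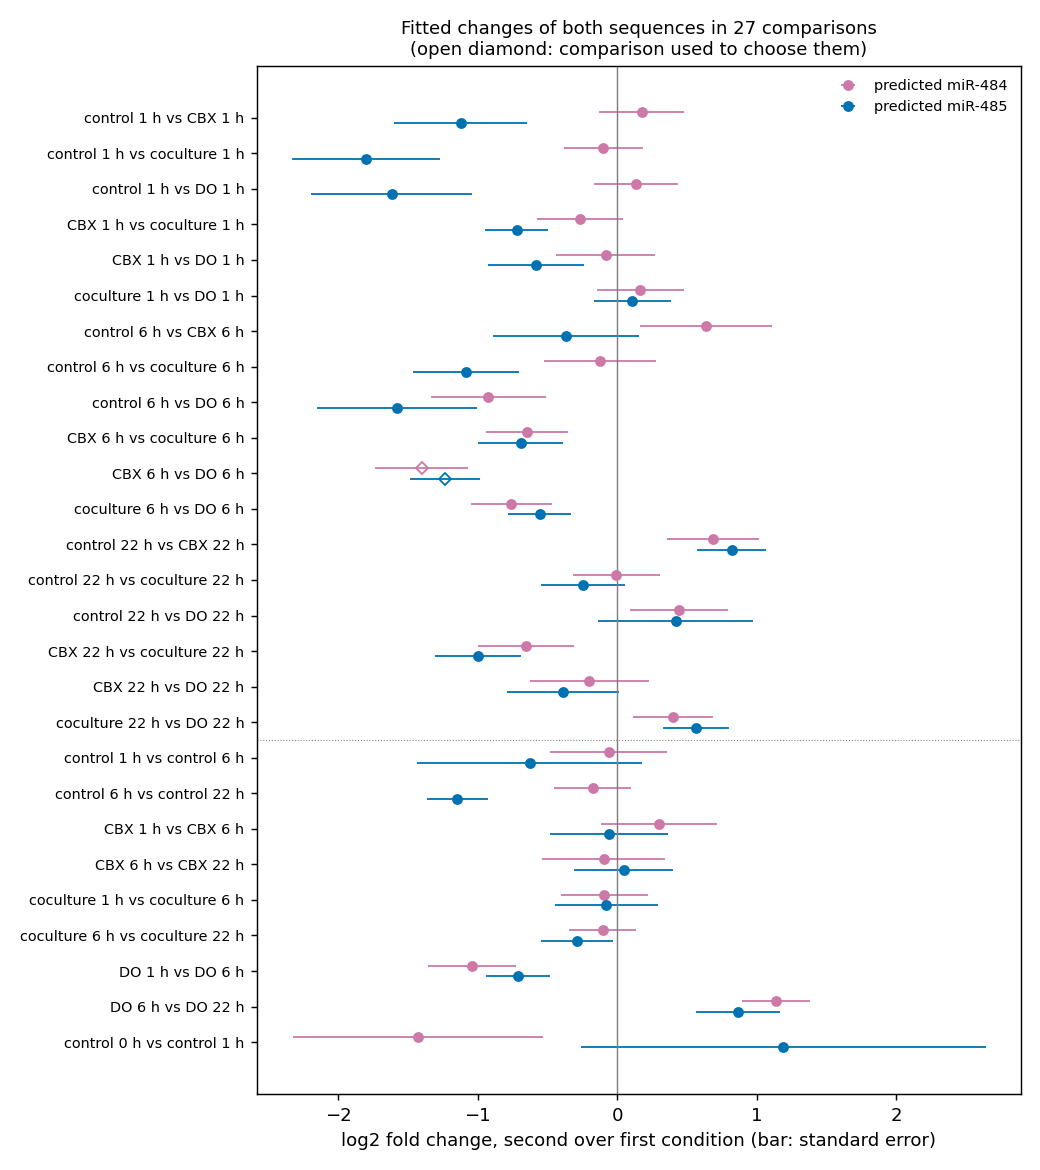
Log2 fold changes with standard errors of predicted miR-484 and predicted miR-485 in 18 group comparisons (above the dotted line) and 9 time comparisons (below it), second over first condition, with open diamonds for the comparison that selected them. At 1 h predicted miR-485 lies between -1.80 and -1.12 against control while predicted miR-484 stays within 0.18 of 0.

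Over maturation time, 5 of the 9 comparisons held no library of the selecting comparison, and edgeR called neither sequence in them. At an unadjusted p under 0.05 predicted miR-484 passed in 0 and predicted miR-485 in 1, and DESeq2 called neither, with 0 and 1 at that level. In all 5 comparisons 0% of miRNAs were called. In control, predicted miR-485 went from 5499.8 ± 6580.2 CPM at 6 h to 2226 ± 2377 CPM at 22 h (SD, n = 3), a log2 fold change of -1.14 (SE 0.22) (unadjusted p = 0.0045 and adjusted p = 0.62, edgeR). It was lower in 3 of 3 pairs, while predicted miR-484 had -0.18 (SE 0.28). The cumulus and granulosa list went from 3419, 3409 and 3969 CPM at 6 h to 8929.7, 9820.1 and 7735 CPM at 22 h, higher in each pair. Which members of the list differed is not given here, and its part in the result was not tested. In coculture neither sequence had a log2 fold change beyond -0.29 at either step.

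From 0 to 1 h in control the result depended on single libraries at both times. With all 3 replicates predicted miR-485 had a log2 fold change of 1.19 (SE 1.45) (unadjusted p = 0.43 and adjusted p = 0.99, edgeR), although its mean was 13615 CPM at 0 h and 8796 CPM at 1 h, since 0 h replicate 1 was very high and the other 2 pairs were higher at 1 h. Without that library of 11985 counts the log2 fold change was 2.89 (SE 0.43, adjusted p = 0.00082, edgeR), which was the 1 call among 440 miRNAs. Predicted miR-484 had -1.42 (SE 0.90) with all libraries and 0.17 (SE 0.49, adjusted p = 0.997, edgeR) without that one. Without control replicate 2 alone at 1 h, predicted miR-485 had -0.93 (SE 1.77), and without replicate 3 alone -1.08 (SE 3.54). Both were opposite in sign to the fit of all libraries, and neither was called. Without replicate 2 at both times predicted miR-484 was called, at -2.68 (adjusted p = 0.045, edgeR), at rank 4 of 399 by p. That fit keeps 0 h replicate 1, and how many other miRNAs were called in it is not given here.

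The time steps of CBX and DO pass through the selecting libraries at 6 h and are given as values. In DO, predicted miR-484 went from 473 ± 144 CPM at 1 h to 237 ± 104 CPM at 6 h (SD, n = 3), with a log2 fold change of -1.04 (SE 0.31), and back with 1.14 (SE 0.24) from 6 to 22 h. For predicted miR-485 the steps were -0.71 (SE 0.23) and 0.86 (SE 0.30). Each step had the same sign in 3 of 3 pairs, and from 6 to 22 h the libraries did not overlap. In CBX the steps were -0.06 (SE 0.42) and 0.05 (SE 0.35) for predicted miR-485, and 0.30 (SE 0.42) and -0.10 (SE 0.44) for predicted miR-484. The means of DO at 6 h thus lay below those of DO at both other times. Among all miRNAs 0.227% were called for CBX from 6 to 22 h and 0% for the other 3 steps.

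The profile most like that of each sequence was the other. Over the 36 libraries, among 497 other distinct profiles, Spearman's rho of log2 CPM between predicted miR-484 and predicted miR-485 was 0.86, against a median of -0.04 for miR-484 with all profiles and -0.03 for miR-485. It was 0.89 in the 27 libraries of CBX, coculture and DO, 0.75 in the 9 of control, and 0.70, 0.90 and 0.80 within the replicate numbers. Next came predicted miR-824, the sequence with the letters of a leucine tRNA 5′ end, with 0.73 and 0.74. Then followed predicted miR-383, miR-506 and miR-879 for miR-484, with 0.72, 0.70 and 0.68, and predicted miR-506, miR-879 and miR-742 for miR-485, with 0.67, 0.60 and 0.60. Predicted miR-457, with the letters of the 3′ end of alanine tRNA, stood at rank 69 with 0.34 for miR-484 and at rank 41 with 0.39 for miR-485.

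The selecting libraries at 6 h contribute to these values, and all points share depth and replicate number. Over the 30 libraries without CBX and DO at 6 h, the 2 sequences were still nearest each other, with rho 0.83, predicted miR-824 stood at 0.65 and 0.69, now at rank 5 for miR-484 and rank 3 for miR-485, and predicted miR-457 at 0.30 and 0.40. The 3 profiles most like the log2 ratio of the 2 sequences were those of predicted miR-790, predicted miR-542 and bta-miR-146a, with rho 0.41, 0.40 and 0.40, each below that of the 2 sequences with each other.

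The levels of predicted miR-457, the 3′ counterpart in letters, are given for comparison. At 22 h it was at 1084 ± 387 CPM in CBX and 377 ± 126 CPM in control (SD, n = 3), with a log2 fold change of 1.51 (SE 0.33, adjusted p = 0.20, edgeR). In coculture it was at 292 ± 50.9 CPM, with a log2 fold change of -1.83 (SE 0.29) against CBX (adjusted p = 0.27, edgeR). From 1 to 6 h it was lower at 6 h in 3 of 3 pairs in control, coculture and DO, with no overlap in any of the 3, and its log2 fold changes were -0.71 (SE 0.40), -1.32 (SE 0.34) and -1.05 (SE 0.23). None of these was called. In the same 3 steps predicted miR-484 had -0.06 (SE 0.42), -0.09 (SE 0.31) and -1.04 (SE 0.31), so that in DO the values of both lay close together. In CBX from 1 to 6 h, predicted miR-457 had 0.08 (SE 0.37) and predicted miR-484 0.30 (SE 0.42), and whether the sequences differed in these steps was not tested.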

How the data were processed

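Mature miRNA read counts of 39 libraries, as deposited, were whole numbers, one table for known and one for predicted miRNAs. Per the labels and the methods, the authors trimmed the reads, collapsed them by unique molecular identifier with UMI-tools (1.1.2 in the submitters' processing notes), checked them with FastQC 0.11.9 and mapped and counted them with miRPro against miRBase and the assembly ARS-UCD1.2. How reads shared between identical copies were assigned is not given in the sources used here, nor whether reads with a mismatch were counted. The 3 rows with identical counts each enter the library totals. Both tables were joined and fitted as counts with edgeR 4.0.16 in R 4.3.3 (filterByExpr at its default minimums, 10 counts and 15 in total, TMM, legacy quasi-likelihood F-test, replicate number as a block, Benjamini-Hochberg over all miRNAs tested). A call needed an adjusted p under 0.05 and a log2 fold change of 1 or more in size, except in the joint fit, which used the adjusted p alone. DESeq2 1.42.0 was an alternative. The fits recovered changes in simulated counts. Those counts had the same dispersion for every miRNA and no replicate effect, so they check the code and not the fits of these data. Counts of pairs in a comparison use the scaling of that comparison unless stated otherwise. Likeness used log2 CPM with a prior count of 2. Named miRNAs were the members, known miRNAs of the same number, predicted miR-457 and miR-824, and the 5 profiles most like each member and the 3 most like their ratio, identical copies taken once. The members and lists were chosen with earlier results of these data known. The sequences come from the study's own list of predicted miRNAs.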

Additional observations from a re-analysis of the deposited data

Results flagged for a closer look

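From 6 to 22 h, both sequences were higher at 22 h in each of the 3 pairs of DO libraries and lower at 22 h in each of the 3 pairs of control libraries. These counts of pairs use the scaling of each comparison. On the scale of all libraries, control replicate 1 of predicted miR-484 was at 162 CPM at 6 h, from 3 counts, and at 173 CPM at 22 h, so that 2 of the 3 control pairs were lower. The log2 fold change of DO was above that of control by 1.37 (SE 0.49) for predicted miR-484 and by 2.16 (SE 0.82) for predicted miR-485. For DO against coculture, predicted miR-484 was higher in DO in 3 of 3 pairs at 1 h and lower in 3 of 3 pairs at 6 h, and the log2 fold change at 6 h minus that at 1 h was -0.96 (SE 0.41). The DO libraries at 6 h were among those that selected the sequences, so no test of these differences is given. No condition had more than 3 libraries, so no rule was used to screen single libraries as outliers.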

How the results depend on the processing

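Neither sequence was called in the 13 group and 5 time comparisons that held no selecting library. Without the low-count filter, predicted miR-485 was called in 3 of the 13, all against control at 1 h. By p it ranked 11 of 1253 for CBX, 8 of 1241 for coculture and 7 of 1230 for DO. The share of all miRNAs called without the filter is not given here. Leaving out replicates 1, 2 and 3 in turn gave 0 to 2 group calls of predicted miR-485, and 0 to 1 time calls of each sequence. The share of all miRNAs called in these fits is not given here. Without control 0 h replicate 1, a choice made after seeing the data, predicted miR-485 had 1 time call, which was the 1 call among 440 miRNAs. The cause was not tested. From 6 to 22 h in control, the log2 fold change of predicted miR-484 turned to 0.073 with deduplicated reads as library sizes. Under the same setting predicted miR-485 at 22 h went from 0.82 to 0.165 for CBX over control and from -0.997 to -0.378 for coculture over CBX. The ratio over 36 libraries moved between 0.158 and 0.218, and the difference between the highest and lowest of 12 condition means moved by less than the SD between replicates. The other settings left those calls and the adjusted p of the joint fit on the same side of the threshold. The comparison of CBX with DO at 6 h kept its sign under 13 alternatives, at -1.83 to -1.01 for predicted miR-484 and -1.52 to -1.04 for predicted miR-485. Because these libraries selected the sequences, the sign was set by the choice, and the range is a description that lends no support. Its call was lost for both without the replicate block, without the low-count filter, with deduplicated reads as library sizes and with predicted miRNAs alone. It was also lost for both without replicate 2 or 3, and for predicted miR-484 with DESeq2.

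Same-numbered libraries shared only a number in the labels: their deviations from the group means correlated between -0.114 and 0.698 over 54 pairs, above 0.1 in 41. Without the replicate block, predicted miR-484 and miR-485 had 0 group and 0 time calls. The selecting comparison of CBX with DO at 6 h then gave -1.59 and -1.42 as values alone, and neither sequence was called. Counts of predicted miR-484, 3 to 58 at 1, 6 and 22 h, limit what its comparisons can detect.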
